A study of Mus musculus with 13 samples.

Results

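The proteasome is the barrel-shaped protease that breaks down proteins tagged with ubiquitin, and the transcripts of its genes were followed here in mouse blastocysts of embryonic day 5.5 under 5 conditions, set against blastocysts of day 4.5. Members were chosen by gene symbol alone, as every gene named Psma, Psmb, Psmc, Psmd, Psme, Psmf or Psmg followed by a number, together with Pomp and without pseudogenes. The rule found 50 of the 31528 genes in the deposited table, and all 50 passed the filter on low counts. By role they were 7 genes of the core alpha ring, 7 of the core beta ring, 3 inducible subunits of the immunoproteasome, 2 tissue-specific core subunits, 9 of the base, 8 of the lid, 6 activator and inhibitor genes, and 8 assembly factors.

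In the core particle, alpha subunits form gated outer rings and beta subunits form inner rings, of which Psmb5, Psmb6 and Psmb7 carry the chymotrypsin-like, caspase-like and trypsin-like sites. The regulatory particle docks on the core: its lid removes ubiquitin chains, and its base unfolds the substrate with a ring of ATPases. In cells exposed to interferon the catalytic subunits are exchanged for Psmb8, Psmb9 and Psmb10, and the activator formed by Psme1 and Psme2 can take the place of the regulatory particle. In embryonic diapause, the natural arrest of the mouse blastocyst before implantation, growth signalling through mTORC1 is low, and protein synthesis and breakdown are both part of what that pathway governs.

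All embryos were blastocysts of B6D2F1 mice, a cross of C57BL/6 and DBA2J, and each library was made from whole blastocysts. Blastocysts at embryonic day 5.5 were of 5 kinds. Targeted OVX embryos carried guides against Nprl2 and Tsc2, were labelled knockout for both and came after ovariectomy (n = 2). OVX embryos were wild type after ovariectomy (n = 2), and starvation embryos were wild type under a treatment labelled starvation (n = 2). The other wild-type groups at day 5.5 came from culture in KSOM, a simple embryo medium, with lowered arginine, leucine, isoleucine, lysine, glucose and lactate, called reduced KSOM (n = 3), or without protein and carbohydrate components, called depleted KSOM (n = 2). They were set against wild-type blastocysts of normal diet at day 4.5, called E4.5 (n = 2). The day and the treatment cannot be told apart in any comparison with E4.5, no group in complete KSOM was analysed here, and the labels do not say whether replicates came from separate females or cultures, so p-values measure the spread between these libraries only. Nprl2 and Tsc2 encode brakes on mTORC1; their transcripts stood at 13.9 and 28.6 CPM (Nprl2) and 14.7 and 8.26 CPM (Tsc2) in the targeted libraries, against 11.9 to 42.0 CPM and 12.6 to 26.7 CPM in the other libraries. Edited transcripts can still be counted, and what share of embryos was edited is not given in the sources used here.

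The 13 libraries held 40678386 to 72125687 counts each, of which the proteasome genes took 0.748% to 1.54%. Levels below are CPM, a gene's counts relative to its library's total, after edgeR's trimmed-mean scaling (TMM), or the authors' FPKM where genes of different length are set side by side, and a difference is a log2 fold change with its standard error from edgeR. Calls were made at p under 0.05 after Benjamini-Hochberg adjustment across the 21808 genes tested. Trophectoderm, epiblast and primitive endoderm markers were detected in every library, none being at 0, but at different levels: 5 primitive endoderm markers summed to 50.9 to 272 CPM in the day 5.5 libraries, against 827 and 737 CPM in E4.5, and 5 epiblast markers to 74.2 to 381 CPM, against 361 and 335 CPM. OVX replicate 1 and the 3 reduced KSOM libraries stood apart: 10 skeletal muscle markers summed to 895 to 1231 CPM there, against 131 to 493 CPM elsewhere, and 9 neutrophil markers to 642 to 1903 CPM, against 0.553 to 133 CPM elsewhere. Outside these libraries the muscle sum was mostly Mylpf (128 to 490 CPM), with Acta1 at no more than 0.226 CPM, against 94.1 to 147 CPM in them. Erythroid markers were high in reduced KSOM replicate 3 and depleted KSOM replicate 1 (353 and 379 CPM), and lymphocyte markers reached at most 2.15 CPM. Gene coordinates are on build GRCm38. In whole embryos fewer cells of a type and less RNA per cell cannot be told apart.

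Promoters of 4 of the genes that changed are shown because the pathway genes are known to be switched on together, by interferon for the activator pair and Psmb9, and through CCAAT and antioxidant response elements for the standard subunits. Each is the RefSeq stretch of 300 bases (250 before and 50 after a transcript start, build GRCm38.p6), 5′ to 3′ on the strand of the gene. Capitals mark the letters of a CCAAT box or of the interferon core (GAAA, any 2 bases, GAAA), searched on both strands.
Psme1, chr14:55578244-55578543 (plus strand): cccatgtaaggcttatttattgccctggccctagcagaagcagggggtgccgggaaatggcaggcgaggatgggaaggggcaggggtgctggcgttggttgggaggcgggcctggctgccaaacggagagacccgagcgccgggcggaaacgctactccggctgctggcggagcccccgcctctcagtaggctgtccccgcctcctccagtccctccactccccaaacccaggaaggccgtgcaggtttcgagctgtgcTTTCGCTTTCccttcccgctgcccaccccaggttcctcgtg
Psme2, chr14:55591052-55591351 (minus strand): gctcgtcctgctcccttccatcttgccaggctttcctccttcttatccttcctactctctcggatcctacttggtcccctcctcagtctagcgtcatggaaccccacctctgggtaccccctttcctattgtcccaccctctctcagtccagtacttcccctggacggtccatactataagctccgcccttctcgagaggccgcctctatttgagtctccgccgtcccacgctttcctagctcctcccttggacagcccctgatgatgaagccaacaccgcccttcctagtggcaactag
Psmb9, chr17:34187281-34187580 (minus strand): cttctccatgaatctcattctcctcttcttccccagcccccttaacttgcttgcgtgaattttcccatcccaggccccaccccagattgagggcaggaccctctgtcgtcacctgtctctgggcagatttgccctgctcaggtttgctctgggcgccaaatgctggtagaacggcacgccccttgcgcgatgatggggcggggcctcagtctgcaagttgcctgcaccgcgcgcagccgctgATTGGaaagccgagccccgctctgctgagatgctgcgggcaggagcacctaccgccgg
Psmd10, chrX:140956662-140956961 (minus strand): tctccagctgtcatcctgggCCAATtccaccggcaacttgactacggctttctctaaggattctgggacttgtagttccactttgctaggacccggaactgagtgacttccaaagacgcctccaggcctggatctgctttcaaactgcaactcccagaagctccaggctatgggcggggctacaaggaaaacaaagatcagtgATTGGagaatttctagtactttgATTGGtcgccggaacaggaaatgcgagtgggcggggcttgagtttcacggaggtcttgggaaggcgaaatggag
The Psme1 promoter held 1 interferon core and the Psme2 promoter none, Psmb9 had 1 CCAAT box and Psmd10 had 3. Promoters were found for 42 of the 50 members (45 promoters). The interferon core stood in 5 of these 45 (11.1%), against 3.44% of 32851 mouse promoters of the same length, and CCAAT in 14 (31.1%), against 37.4%. The 5 with the interferon core were those of Psme1, Psmb3, Psmd4, Psmd9 and Psmg4. The stretches searched for Psmb8, Psmb9, Psmb10 and Psme2 lacked it, and that of Psmb10, not printed, held none of the motifs searched. The Psmb10 stretch, chr8:105938343-105938642, lay wholly outside the coordinates of the gene in the deposited table. Those of Psmb8 and Psmb9 lay wholly inside theirs. Other transcript starts of Psmb8, Psmb9 and Psmb10 were not searched, so the element may stand elsewhere. The antioxidant core TGACNNNGC stood in 6 (13.3%), against 12.4%. None of the 4 promoters printed held more than 1 kind of motif. Psmd3 had no entry.

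A few proteasome genes moved strongly while most did not pass the test. Psmd3, a scaffold subunit of the lid, was the gene called most often: it fell in 4 of the 5 day 5.5 groups against E4.5. Psmb9 and Psmb10 of the immunoproteasome fell in depleted KSOM, and Psmb10 fell with starvation as well. Psme1 rose in OVX, and the assembly chaperone Psmd10 rose in OVX and targeted OVX, where Psma2 and Psmd6 also rose.

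By count, targeted OVX against E4.5 had 3 members higher and 1 lower of 50, where 1.68% and 0.986% of all genes tested were called in these directions (2.66% in all). OVX had 2 higher and 1 lower (1.56% and 0.481% of all genes, 2.04% in all), and starvation had none higher and 1 lower (1.68% and 0.532%, 2.21% in all). Reduced KSOM had none higher and 1 lower (0.770% and 0.362%, 1.13% in all), and depleted KSOM had none higher and 3 lower (3.29% and 2.21%, 5.51% in all). Counts of 1 to 4 genes describe those genes and not the complex as a whole. At an unadjusted p under 0.05 there were 17 members in targeted OVX (17.6% of all genes), 13 in OVX (15.8%), 13 in starvation (16.8%), 10 in reduced KSOM (15.2%) and 15 in depleted KSOM (20.9%). The 5 comparisons share the same E4.5 libraries. With library totals in place of TMM the calls were 0 higher and 1 lower in targeted OVX, 0 and 2 in OVX, 0 and 0 in starvation, 0 and 7 in reduced KSOM, and 0 and 7 in depleted KSOM. Genes in general were lower on that scale, with all-gene medians of -0.92, -0.53, -0.17, -0.50 and -0.41 in the same order. What share of all genes was called there was not computed. These counts therefore cannot be read as a fall of the proteasome genes as a set.

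**Figure D1:**
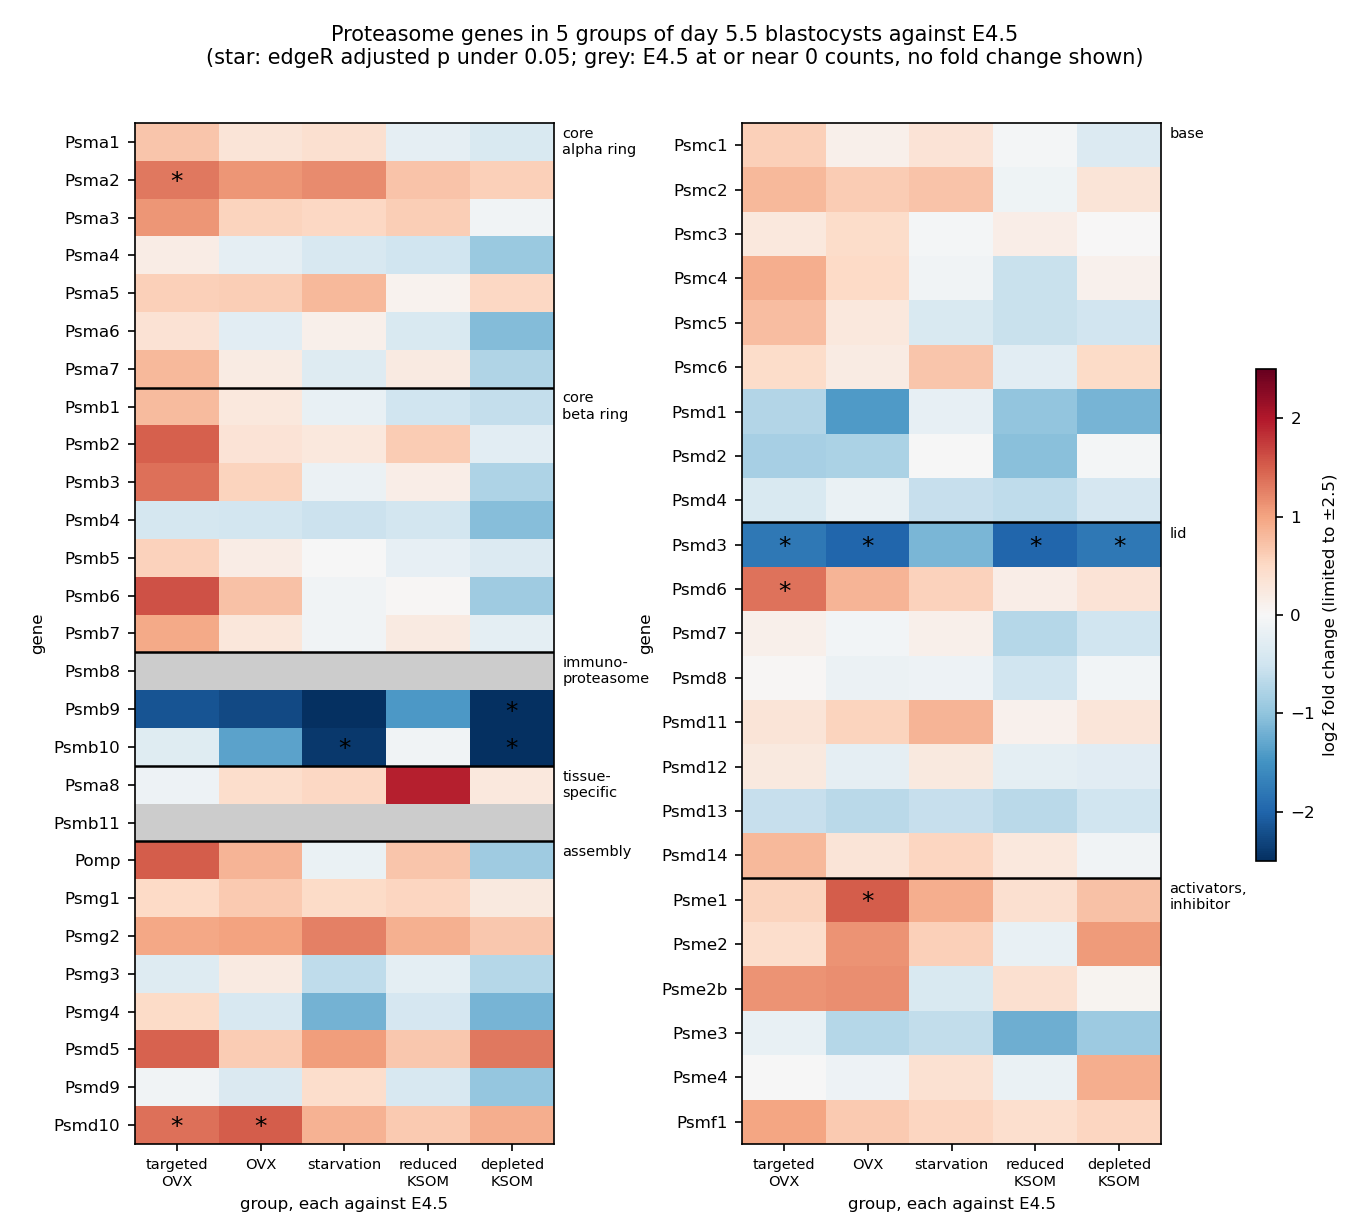
Log2 fold changes of 50 proteasome genes (rows, grouped by role) in 5 groups of day 5.5 blastocysts (columns, 2 or 3 libraries each), each against 2 E4.5 libraries. Stars mark adjusted p under 0.05; Psmd3 carries 4 stars, and Psmb8 and Psmb11 are grey because E4.5 was at or near 0 counts.

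The median over the 50 members lay above that of all genes in targeted OVX (0.57, against -0.16 for all genes) and OVX (0.29, against 0), close to it in starvation (0.13, against 0), and below it in reduced KSOM (-0.09, against 0.15) and depleted KSOM (-0.26, against -0.09). Library totals moved the median of all genes most in targeted OVX, where it was -0.92 with library totals and -0.16 with TMM. The members' median with library totals was -0.18 in targeted OVX, -0.29 in OVX, -0.12 in starvation, -0.78 in reduced KSOM and -0.58 in depleted KSOM. Over 16 alternatives a comparison, the members' median ran from -0.18 to 0.75 in targeted OVX, -0.35 to 0.47 in OVX, -0.44 to 0.35 in starvation, -0.78 to 0.01 in reduced KSOM and -0.58 to -0.07 in depleted KSOM, so that its sign held in depleted KSOM and turned in the other groups. Relative to all genes the members of targeted OVX stood 0.73 higher with TMM and 0.74 higher with library totals. In targeted OVX 32 members lay above the range of E4.5 and 5 below it, where 19.3% and 29.6% of all genes did. OVX had 18 above and 10 below (21.3% and 24.9% of all genes), and starvation 14 and 8 (19.8% and 24.7%). Reduced KSOM had 10 above and 16 below (24.0% and 20.4%), and depleted KSOM 13 and 24 (24.5% and 30.5%).

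Replicates of a group differed by as much as many of these changes. Of the 31 genes of the core rings, base and lid, 29 were higher in starvation replicate 1 than in replicate 2, by a median of 0.91 on the log2 scale. In targeted OVX 26 of 31 were higher in replicate 1 (median 0.38) and in E4.5 28 of 31 (0.27). The depleted KSOM libraries had the smallest median difference, at -0.06, with 13 of 31 higher in replicate 1.

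**Figure D2:**
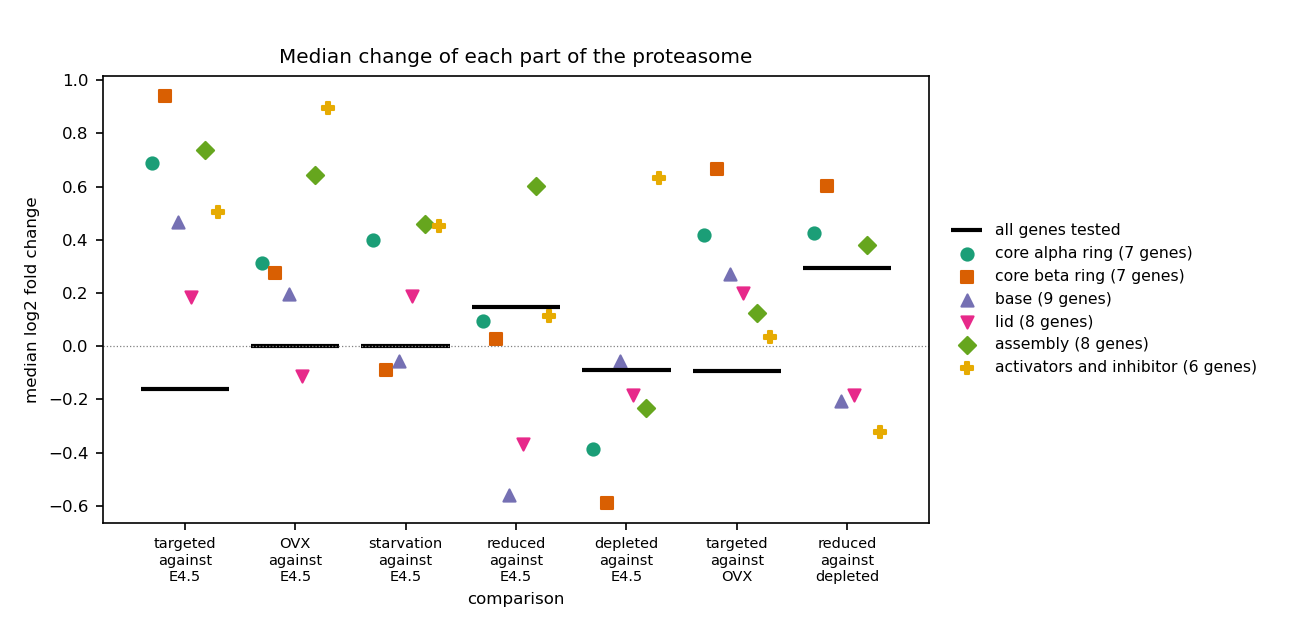
Median log2 fold change of each role group (symbols; number of genes in the legend) in 7 comparisons, with the median of all genes tested as a black bar. In targeted OVX each of the 6 role groups plotted lies above the bar, with the core beta ring at 0.94; in depleted KSOM the core beta ring is lowest, at -0.59.

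Of the 14 standard core ring genes, Psma2 in targeted OVX was the only one called, and the beta ring had the highest median of the 6 larger role groups in targeted OVX and the lowest in depleted KSOM. In targeted OVX the median of the beta ring was 0.94 and that of the alpha ring 0.69, against -0.16 for all genes. In depleted KSOM the medians were -0.59 and -0.38, against -0.09. All 7 beta genes had negative estimates in depleted KSOM, and 6 of 7 had positive ones in targeted OVX, Psmb4 being the exception at -0.43 ± 0.36 (adjusted p = 0.53).

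Psmb6, the caspase-like subunit, had the widest spread of the standard subunits and the highest FPKM of the catalytic subunits in all 13 libraries. It had 3258 and 2122 CPM in targeted OVX, 2139 and 851 in OVX, 1239.7 and 447 in starvation, 1021, 808 and 919 in reduced KSOM, 445 and 530.2 in depleted KSOM, and 1057 and 739 in E4.5. Both targeted libraries lay above E4.5 and both depleted libraries below it, while OVX replicate 1 lay above and replicate 2 within the E4.5 range, and starvation replicate 1 lay above and replicate 2 below it. Its difference was 1.58 ± 0.51 in targeted OVX (adjusted p = 0.12) and -0.88 ± 0.51 in depleted KSOM (adjusted p = 0.33), neither called.

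Psmb5, the chymotrypsin-like subunit, varied less. It had 356 and 403 CPM in targeted OVX, 328 and 247 in OVX, 347 and 156 in starvation, 244, 238 and 176 in reduced KSOM, 204 and 195 in depleted KSOM, and 264 and 243 in E4.5, and its smallest adjusted p was 0.41, in targeted OVX against E4.5. Psmb7, the trypsin-like subunit, had 288 and 144 CPM in targeted OVX against 118 and 106 in E4.5 (0.94 ± 0.35, adjusted p = 0.18), and 90.6 to 165 CPM elsewhere. The gene overlaps Nek6 on the opposite strand, and whether counting used strand is not stated. Psmb2, a beta ring subunit without a catalytic site, reached 1569 and 865 CPM in targeted OVX, against 456 and 405 in E4.5 (1.498 ± 0.40, adjusted p = 0.068).

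Psma2, an alpha ring gene at chr13:14613240-14674236 (plus strand), was above both E4.5 libraries in all 11 day 5.5 libraries; AW209491 overlaps it on the same strand. It had 863 and 657 CPM in targeted OVX, 731 and 581 in OVX, 763 and 608 in starvation, 517, 481 and 500.02 in reduced KSOM, 417 and 503 in depleted KSOM, and 332 and 275 in E4.5. No group overlapped E4.5, and targeted OVX was highest. Only the targeted difference was called (1.32 ± 0.30, 2.502-fold, adjusted p = 0.037), with 1.18 ± 0.30 in starvation (adjusted p = 0.061) and 1.11 ± 0.30 in OVX (0.075). The call was lost without either targeted library (adjusted p = 0.13 without replicate 1 and 0.073 without replicate 2) or either E4.5 library (0.15 and 0.34), and with library totals (0.56, adjusted p = 0.25). In the beta ring, Psmb2 was the highest gene of reduced KSOM (0.64, adjusted p = 0.42) and Psmb1 the lowest (-0.49, 0.43). Psma4 and Psma6 were the lowest of the alpha ring in depleted KSOM, at -0.92 ± 0.27 (adjusted p = 0.064) and -1.08 ± 0.36 (0.11).

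Over the 50 members, 4 (Psma2, Psmg1, Psmg2 and Psmd10) were above both E4.5 libraries in all 11 day 5.5 libraries, and 2 (Psmd3 and Psmb9) below both, where 3.45% and 5.98% of all genes tested were. With library totals none was above and 8 were below, Psmd3 and Psmb9 among them, where 0.903% and 12.5% of all genes were.

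The balance of core and regulatory particle can be read within a library, with no scaling between libraries. The 17 base and lid genes together had 0.232 and 0.334 of the summed FPKM of the 14 core ring genes in targeted OVX, 0.277 and 0.493 in OVX, 0.409 and 0.418 in starvation, 0.302, 0.339 and 0.282 in reduced KSOM, 0.589 and 0.473 in depleted KSOM, and 0.396 and 0.436 in E4.5. Both depleted libraries lay above E4.5, all 3 reduced libraries and both targeted libraries lay below it, and the OVX libraries lay on either side. Much of the core sum came from Psmb2, Psmb3 and Psmb6, with 901, 814 and 1203 of 4798 FPKM in targeted OVX replicate 1. In E4.5 replicate 1 they had 453, 506 and 674 of 3692 FPKM. The ratio therefore leans on these genes, and it was not computed without them. Two-sided exact permutation tests cannot pass 0.05 here: reduced KSOM against E4.5 and against depleted KSOM gave p = 0.2, the smallest that 3 against 2 libraries allow, and the comparisons of 2 against 2 cannot go below 0.333.

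**Figure D3:**
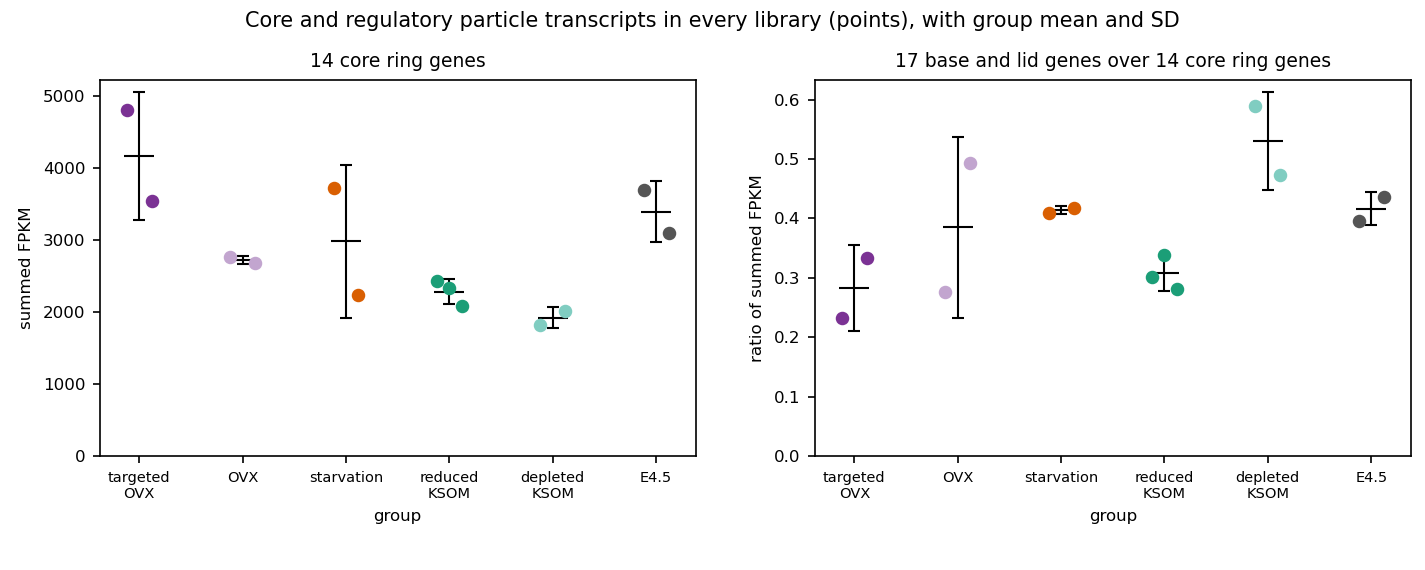
Summed FPKM of the 14 core ring genes (left) and the ratio of the 17 base and lid genes to them (right) in each library (points) of 6 groups, with mean and SD (bars). The summed core FPKM is 3536 and 4798 in targeted OVX and 1813 and 2019 in depleted KSOM, and the ratio is 0.473 and 0.589 in depleted KSOM and 0.282 to 0.339 in reduced KSOM, with E4.5 between them at 0.396 and 0.436.

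By median annotated length, core transcripts were shorter than base and lid transcripts. A gene's length was the median over its annotated protein-coding transcripts, with no filter for partial ones. It came to only 659 bases for Psmd2, 716.5 for Psmd11 and 657 for Psme4. These lengths may differ from those of the transcripts expressed here, so the correlations and offsets below are a rough description. Median annotated lengths were 1035.5 and 859 bases for the alpha and beta rings, and 1527.5 and 1466.5 bases for base and lid. Across 5671 well-measured genes of the whole table the Spearman correlation of length with change was -0.35 in targeted OVX, -0.29 in reduced KSOM and 0.10 in depleted KSOM against E4.5, while across 46 proteasome genes it was 0.14, 0.07 and 0.12 (a description, since genes share libraries). With offsets for annotated length the beta ring median was 0.75 in targeted OVX (0.94 without offsets) and -0.75 in depleted KSOM (-0.59 without), and the lid stood at -0.03 and -0.50 (0.19 and -0.18 without). The alpha ring median in targeted OVX was 0.36 with offsets and 0.69 without. In OVX the alpha and beta ring medians were -0.03 and 0.02 with offsets, and 0.31 and 0.28 without.

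The inducible subunits were scarce in every group. Psmb10, which replaces Psmb7 in the immunoproteasome, had the highest FPKM of them in all 13 libraries; its gene lies at chr8:105935735-105938104 (minus strand). It had 11.8 and 12.5 CPM in targeted OVX, 4.51 and 7.25 in OVX, 1.78 and 3.85 in starvation, 14.4, 10.7 and 17.3 in reduced KSOM, 1.91 and 3.18 in depleted KSOM, and 15.5 and 14.3 in E4.5. Only reduced KSOM overlapped E4.5, and starvation and depleted KSOM were lowest. Psmb10 fell 5.29-fold in starvation (-2.40 ± 0.56, adjusted p = 0.045) and 5.85-fold in depleted KSOM (-2.55 ± 0.56, adjusted p = 0.021), while OVX stood at -1.34 ± 0.54 (adjusted p = 0.24). Dropping E4.5 replicate 1, E4.5 replicate 2 or starvation replicate 1 ended the starvation call, with adjusted p of 0.23, 0.16 and 0.11, as did library totals (0.079). The depleted KSOM call was lost without any of its 4 libraries (adjusted p = 0.075 to 0.19, fold change -2.96 to -2.23), namely E4.5 replicate 1 or 2 and depleted KSOM replicate 1 or 2.

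Psmb9, which replaces Psmb6, was below both E4.5 libraries in all 11 others; its gene lies at chr17:34181987-34187764 (minus strand) and overlaps Tap1 on the opposite strand, which had 0.161 to 8.22 CPM over the 13 libraries, so reads of the pair cannot be told apart without strand. It had 202 and 0 counts in targeted OVX, 50 and 252 in OVX, 66 and 52 in starvation, 222, 162 and 188 in reduced KSOM, 4 and 6 in depleted KSOM, and 1230 and 447 in E4.5. The E4.5 libraries themselves differed by more than many groups did, and depleted KSOM was close to 0. Summed primitive endoderm markers, too, were lower in all 11 day 5.5 libraries than in E4.5, where Lrp2 alone had 556 and 545 CPM. Lrp2 and Gata6 were lower in all 11, while Gata4, Sox17 and Pdgfra were not. The part of these markers' cells in the Psmb9 and Psmd3 values was not tested. Only the fall in depleted KSOM was called (-7.41 ± 1.89, adjusted p = 0.039), and dropping E4.5 replicate 1, depleted KSOM replicate 1 or depleted KSOM replicate 2 ended it, with adjusted p of 0.11, 0.18 and 0.14. Psmb8, which replaces Psmb5, had 19 and 24 counts in targeted OVX, 159 and 0 in OVX, 0 and 96 in starvation, 64, 36 and 118 in reduced KSOM, 23 and 4 in depleted KSOM, and 0 and 5 in E4.5. No Psmb8 difference was called, and OVX, starvation and E4.5 each held a replicate at 0.

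As a share of the summed FPKM of the 6 catalytic genes, the 3 inducible subunits took 0.378% and 0.459% in targeted OVX, 0.295% and 0.649% in OVX, 0.119% and 0.614% in starvation, 1.16%, 1.02% and 1.61% in reduced KSOM, 0.241% and 0.357% in depleted KSOM, and 1.495% and 1.44% in E4.5. The values need no scaling between libraries. The ranges of reduced KSOM and E4.5 overlapped, and the other 8 libraries lay at 0.119% to 0.649%. Reduced KSOM lay 0.966 percentage points above depleted KSOM (exact two-sided permutation test p = 0.2, the smallest the design allows).

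Blood cell markers differed between the libraries as well. The 9 neutrophil markers summed to 1400, 1903 and 1371 CPM of library totals in reduced KSOM, none of the 9 being at 0, and to 0.553 and 0.758 CPM in E4.5, where Mpo, Ltf and Camp were at 0 in both libraries. OVX replicate 1 had 642 CPM of neutrophil and 236 CPM of macrophage markers, and an inducible share of 0.295%. The part of these transcripts in the reduced KSOM values was not tested.

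**Figure D4:**
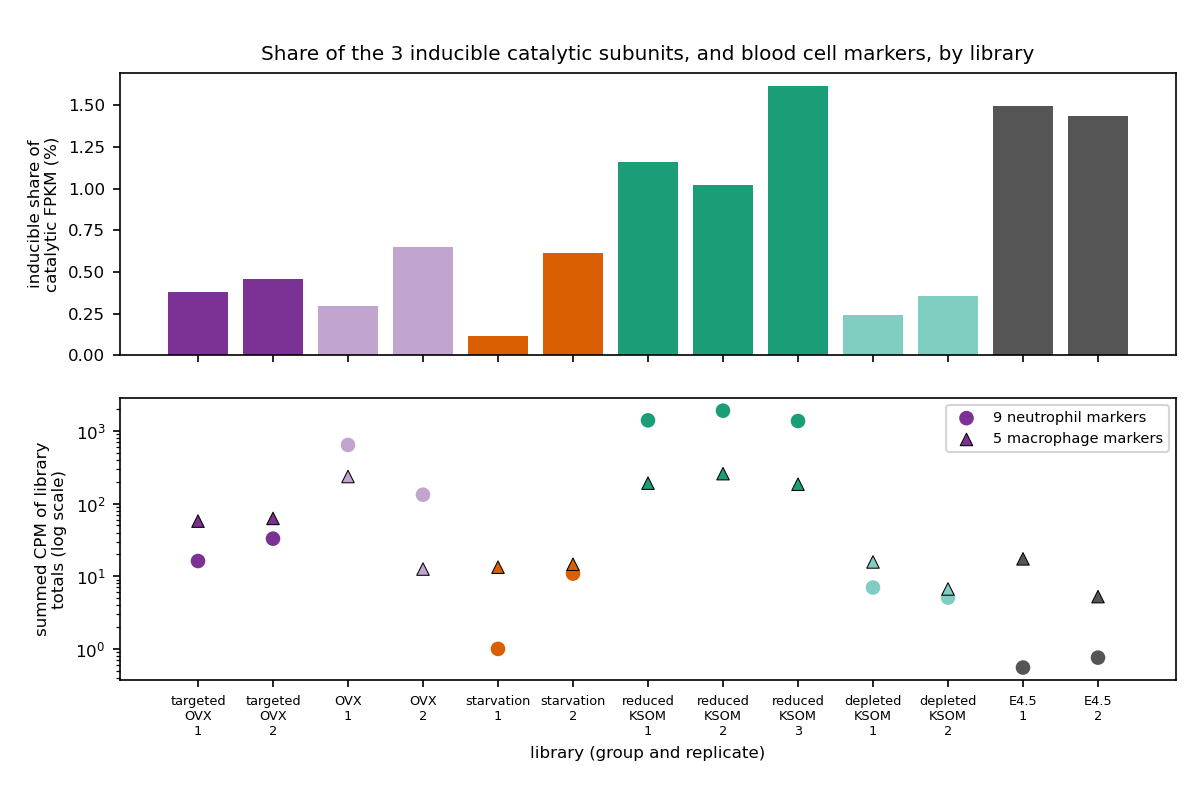
Upper panel: share of Psmb8, Psmb9 and Psmb10 in the summed FPKM of the 6 catalytic genes (%, bars from 0) in each of 13 libraries. Lower panel: summed CPM of 9 neutrophil (circles) and 5 macrophage (triangles) markers on a log axis; reduced KSOM and E4.5 have shares of 1.02% to 1.61%, with neutrophil sums of 1371 to 1903 CPM in reduced KSOM and under 1 CPM in E4.5.

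The tissue-specific core subunits were near the limit of detection. Psma8, the alpha subunit of the testis, had 0.370 to 3.01 FPKM over all libraries, and its highest values, 3.01 and 2.89 FPKM, were in reduced KSOM replicates 2 and 3 (1.95 ± 0.81 against E4.5, adjusted p = 0.28). Psmb11, the beta subunit of the thymus cortex, had counts in only 3 libraries: 26 in targeted OVX replicate 1, 11 in OVX replicate 1 and 115 in starvation replicate 2. Neither was called anywhere.

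The base showed no call in any comparison. Its ATPases Psmc1 to Psmc6 had differences of 0.26 to 0.90 in targeted OVX, the highest in Psmc4 (0.90 ± 0.36, adjusted p = 0.22), and of -0.56 to 0.17 in reduced KSOM. Psmc2 was the highest base gene in OVX (0.63, adjusted p = 0.31) and starvation (0.71, 0.23), and Psmc6 in depleted KSOM (0.47, 0.35). The large non-ATPase scaffolds Psmd1 and Psmd2 had negative estimates in all 5 groups. Psmd1 had 162 and 95.2 CPM in targeted OVX, 90.7 and 70.0 in OVX, 268 and 100.4 in starvation, 131, 103 and 91.9 in reduced KSOM, 93.2 and 99.02 in depleted KSOM, and 213 and 214 in E4.5, so that 10 of 11 day 5.5 libraries lay below E4.5 (OVX -1.41 ± 0.43, adjusted p = 0.12). Psmd2, which also docks ubiquitin-like domains, stood at -1.04 ± 0.38 in reduced KSOM (adjusted p = 0.22), -0.84 ± 0.42 in targeted OVX (0.33) and -0.05 ± 0.42 in depleted KSOM (adjusted p near 1). The ubiquitin receptor Psmd4 had estimates of -0.63 to -0.17 in the 5 groups, none called.

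Psmd3 was the lid gene that set itself apart; it lies at chr11:98682554-98695979 (plus strand). It had 42.1 and 41.4 CPM in targeted OVX, 27.2 and 46.0 in OVX, 86.6 and 44.1 in starvation, 37.6, 42.0 and 31.0 in reduced KSOM, 49.2 and 34.4 in depleted KSOM, and 155 and 135 in E4.5. Every day 5.5 library lay below both E4.5 libraries, and 10 of the 11 were under 50 CPM; summed primitive endoderm markers were likewise below E4.5 in all 11. Psmd3 fell 3.47-fold in targeted OVX (-1.79 ± 0.40, adjusted p = 0.034), 3.96-fold in OVX (-1.98 ± 0.40, 0.028), 3.93-fold in reduced KSOM (-1.97 ± 0.35, 0.022) and 3.46-fold in depleted KSOM (-1.79 ± 0.40, 0.022), all edgeR adjusted p. Starvation stood at -1.15 ± 0.39 (adjusted p = 0.15), and at -1.76 (adjusted p = 0.040) without its replicate 1. Between treatments Psmd3 was not distinguishable: targeted OVX minus OVX was 0.19 ± 0.39 (adjusted p = 0.95) and reduced minus depleted KSOM -0.18 ± 0.35 (0.81).

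These 4 calls rest on few libraries although their sign held in every setting tried. Without E4.5 replicate 1 or 2, adjusted p was 0.13 and 0.12 in targeted OVX, 0.11 and 0.079 in OVX, 0.12 and 0.079 in reduced KSOM, and 0.11 and 0.057 in depleted KSOM. In reduced KSOM, leaving out replicate 1, 2 or 3 also ended the call, at an edgeR adjusted p of 0.10, 0.075 and 0.11. The other 3 treated groups keep a lone library when either replicate is left out, so only log2 fold changes are given for them. Without replicates 1 and 2 these were -1.81 and -1.79 in targeted OVX, -1.65 and -2.42 in OVX, and -2.07 and -1.55 in depleted KSOM. The calls in these groups thus depend on both of their libraries for the spread. The log2 fold change ranged from -2.65 to -1.21 over all alternatives of the 4 comparisons. With a term for the libraries rich in muscle transcripts the calls in OVX (-1.65, adjusted p = 0.14) and reduced KSOM (-1.21, 0.68) were lost.

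None of the other 7 lid genes was called lower in any comparison. Psmd6 had 241 and 278 CPM in targeted OVX, 155 and 207 in OVX, 156 and 144 in starvation, 119, 116 and 104 in reduced KSOM, 131 and 124 in depleted KSOM, and 116 and 85.5 in E4.5; the gene lies at chr14:14112174-14120984 (minus strand). It rose 2.58-fold in targeted OVX (1.36 ± 0.29, adjusted p = 0.029), where both libraries lay above all others. It was no longer called after dropping E4.5 replicate 1, E4.5 replicate 2 or targeted OVX replicate 2, with adjusted p of 0.11, 0.34 and 0.15, or with library totals (0.62, adjusted p = 0.33). Psmd14, the deubiquitinase that cuts chains off substrates, had 278 and 197 CPM in targeted OVX against 144 and 127 in E4.5 (0.81 ± 0.29, adjusted p = 0.16) and -0.09 to 0.54 in the other groups. The lowest of the others was Psmd7, the partner of Psmd14, in reduced KSOM (-0.71 ± 0.26, adjusted p = 0.22), and the highest was Psmd11 in starvation (0.84 ± 0.36, 0.26).

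**Figure D5:**
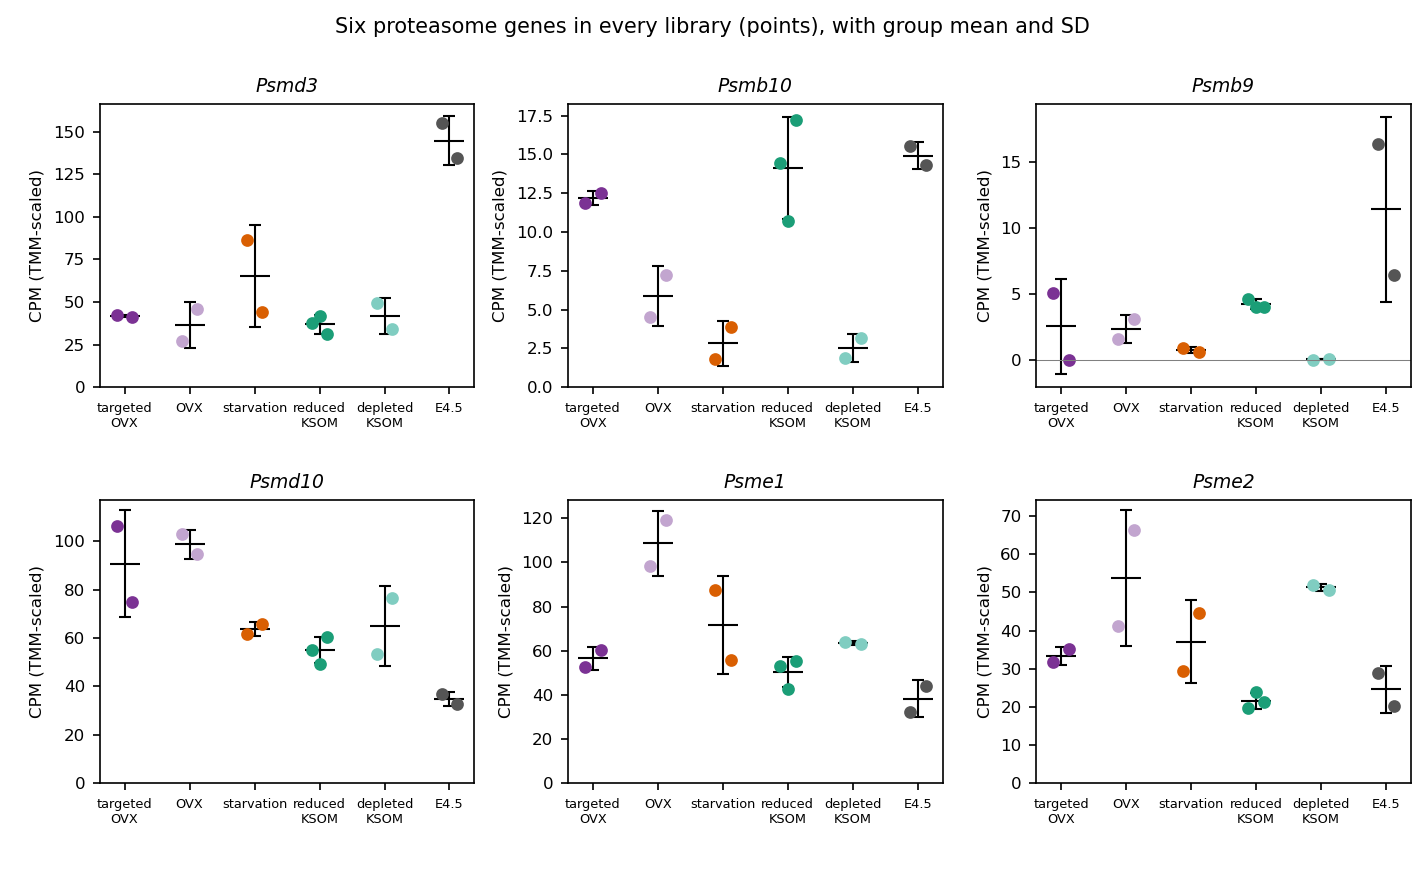
CPM (TMM-scaled) of 6 proteasome genes in each library (points) of 6 groups, with mean and SD (bars); each panel has its own axis. Psmd3 lies at 27.2 to 86.6 CPM in the day 5.5 libraries and at 135 and 155 CPM in E4.5, while Psmd10 lies at 49.4 to 106 CPM in the day 5.5 libraries and at 32.6 and 36.8 CPM in E4.5.

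Among the activators, Psme1 and Psme2, the neighbouring genes of the interferon-inducible activator, stood higher in several day 5.5 groups, and Psme3, the nuclear activator, lower. Psme1, at chr14:55578123-55581528 (plus strand), had 52.7 and 60.3 CPM in targeted OVX, 98.4 and 119 in OVX, 87.3 and 55.9 in starvation, 53.0, 42.8 and 55.2 in reduced KSOM, 64.0 and 62.8 in depleted KSOM, and 32.4 and 44.1 in E4.5. OVX was highest and did not overlap any other group. Psme1 rose 2.85-fold in OVX (1.51 ± 0.33, adjusted p = 0.037). Dropping any of the 4 libraries ended the call, with adjusted p of 0.32 and 0.16 for E4.5 replicates 1 and 2, and 0.064 and 0.091 for OVX replicates 1 and 2. It was lost with library totals too (0.94, adjusted p = 0.27), and in edgeR with a term for muscle-rich libraries (1.64, adjusted p = 0.065). OVX replicate 1, rich in muscle and neutrophil transcripts, had the lower Psme1 of the OVX libraries. Without the muscle-rich libraries the difference was 1.58, from a lone OVX library. The part of these transcripts in the Psme1 values was not tested. Emc9 overlaps the gene on the opposite strand.

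Psme2, at chr14:55587441-55591113 (minus strand), had 31.7 and 35.1 CPM in targeted OVX, 41.2 and 66.3 in OVX, 29.3 and 44.7 in starvation, 19.6, 23.9 and 21.2 in reduced KSOM, 51.9 and 50.7 in depleted KSOM, and 28.8 and 20.3 in E4.5. Reduced KSOM and E4.5 overlapped, and depleted KSOM lay above both. Against E4.5 the differences were 1.13 ± 0.36 in OVX (adjusted p = 0.13) and 1.06 ± 0.36 in depleted KSOM (0.11), not called. Psme2b is an intronless close copy of Psme2, so reads may be shared, and its own differences of 1.13 in targeted OVX and 1.16 in OVX (adjusted p = 0.18 and 0.20) are uncertain.

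Psme3 had 59.1 and 68.1 CPM in targeted OVX, 37.6 and 50.7 in OVX, 53.5 and 41.5 in starvation, 34.2, 29.2 and 29.3 in reduced KSOM, 43.0 and 33.9 in depleted KSOM, and 77.8 and 66.8 in E4.5. All libraries but targeted OVX replicate 2 lay below E4.5, with the largest difference in reduced KSOM (-1.23 ± 0.28, adjusted p = 0.059). Psme4, a large activator of the nucleus and testis, had 80.7 and 89.2 CPM in depleted KSOM against 45.1 and 45.6 in E4.5 (0.90 ± 0.41, adjusted p = 0.23). Psmf1, an inhibitor of the core, had estimates of 0.42 to 0.98, highest in targeted OVX (adjusted p = 0.32).

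The assembly factors had positive medians in 4 of the 5 comparisons with E4.5 (0.74 in targeted OVX, 0.64 in OVX, 0.46 in starvation, 0.60 in reduced KSOM) and -0.23 in depleted KSOM. With library totals these medians were -0.03, -0.03, 0.21, -0.09 and -0.55 in the same order. The medians of all genes were then -0.92, -0.53, -0.17, -0.50 and -0.41. Psmd10, a chaperone of the base at chrX:140948429-140956728 (minus strand), had 106 and 75.0 CPM in targeted OVX, 103 and 94.5 in OVX, 61.7 and 65.8 in starvation, 55.1, 49.4 and 60.4 in reduced KSOM, 53.2 and 76.6 in depleted KSOM, and 36.8 and 32.6 in E4.5. All 11 day 5.5 libraries lay above E4.5, and the ovariectomised groups, with or without guides, had the highest means. It rose 2.61-fold in targeted OVX (1.39 ± 0.31, adjusted p = 0.037) and 2.85-fold in OVX (1.51 ± 0.31, adjusted p = 0.030), and stood at 0.66 to 0.90 in the other groups. Dropping E4.5 replicate 1 ended both calls (0.19 in each), and so did dropping E4.5 replicate 2 (0.33 in targeted OVX, 0.28 in OVX). The targeted call also ended after dropping either of its own libraries (0.16 and 0.069), and the OVX call after dropping OVX replicate 1 (0.095), all adjusted p. With library totals the differences were 0.62 (adjusted p = 0.31) and 0.89 (0.23).

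Psmd5, another base chaperone, had 103 and 137 CPM in targeted OVX and 96.1 and 118 in depleted KSOM, against 40.5 and 45.3 in E4.5 (1.48 ± 0.39, adjusted p = 0.065, and 1.32 ± 0.39, 0.072). Psmd9, the third of that kind, stood between -0.96 in depleted KSOM (adjusted p = 0.16) and 0.44 in starvation. The chaperones of the alpha ring split: Psmg1 and Psmg2, which act as a pair, had positive estimates in all 5 groups (0.24 to 0.66 and 0.67 to 1.25), while of the other pair Psmg3 was lowest in depleted KSOM (-0.70 ± 0.41, adjusted p = 0.33), and Psmg4 stood at -1.17 in both starvation (adjusted p = 0.12) and depleted KSOM (0.085). Pomp, the factor that matures the beta ring, had 1093 and 553 CPM in targeted OVX, 743 and 292 in OVX, 317 and 197 in starvation, 428, 401 and 570.2 in reduced KSOM, 145 and 169 in depleted KSOM, and 377 and 199.97 in E4.5. It stood at 1.51 ± 0.50 in targeted OVX (adjusted p = 0.13) and -0.88 ± 0.49 in depleted KSOM (0.32).

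Targeting Nprl2 and Tsc2 called no proteasome gene against OVX, where 0.0367% of all genes tested were called by edgeR (0.00459% higher and 0.0321% lower), and DESeq2 called none either. At an unadjusted p under 0.05 there were 4 members of 50, where 10.9% of all genes were. The median of the 50 members was 0.30, against -0.09 for all genes, and all 7 beta ring genes had positive estimates, the largest being Psmb2 (1.15 ± 0.40, adjusted p = 0.32). Psmb2 had 1569 and 865 CPM in targeted OVX and 712 and 386 in OVX, so that the groups did not overlap while the replicates within each lay nearly as far apart. Of all members, 18 lay above the OVX range and 2 below, where 12.8% and 19.1% of all genes did. Psme1 was the lowest activator (-0.94 ± 0.32, adjusted p = 0.31).

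The KSOM media differed from each other in 2 proteasome genes, Psmb10 higher and Psme2 lower in reduced than in depleted KSOM, where 5.79% of all genes tested were called (2.99% higher and 2.80% lower). At an unadjusted p under 0.05 there were 11 members (22.7% of all genes), and 21 members lay above the depleted KSOM range and 11 below (27.5% and 20.8%). Psmb10 averaged 14.1 ± 3.30 CPM in reduced KSOM and 2.55 ± 0.901 in depleted KSOM (SD, n = 3 and 2), a 5.54-fold difference (2.47 ± 0.53, adjusted p = 0.024). Psme2 averaged 21.6 ± 2.15 CPM in reduced KSOM and 51.3 ± 0.863 in depleted KSOM, 2.38-fold lower (-1.25 ± 0.32, adjusted p = 0.041). Neither pair of ranges overlapped. The beta ring median was 0.60 and the base median -0.21, against 0.29 for all genes; with library totals these were 0.24 and -0.56, against 0. Pomp stood at 1.57 ± 0.47 (adjusted p = 0.068) and Psmb9 at 5.98 ± 1.74 (0.064). Both calls were lost without any of the 5 libraries: for Psmb10, adjusted p was 0.076, 0.057 and 0.084 without reduced KSOM replicates 1, 2 and 3, and 0.22 and 0.092 without depleted KSOM replicates 1 and 2. For Psme2 it was 0.14, 0.098 and 0.12, and 0.23 and 0.18, in the same order. With library totals Psmb10 was no longer called (2.10, adjusted p = 0.066), while Psme2 was (-1.61, adjusted p = 0.046). Muscle and neutrophil transcripts were high in all 3 reduced KSOM libraries and low in both depleted ones. With a term for libraries rich in muscle transcripts, which only OVX replicate 1 separates from the group, Psmb10 stood at 3.16 (adjusted p = 0.39) and Psme2 at -0.56 (0.86).

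Genes that feed the proteasome changed in few groups. Of 39 other pathway genes tested, depleted KSOM had 4 lower and 1 higher, where 2.21% and 3.29% of all genes tested were called in these directions, all of the ones that fell being of ubiquitin activation or delivery: Uba1, the main activating enzyme (-1.33, adjusted p = 0.025), the unfoldase Vcp (-1.51, 0.047), the shuttle Rad23b (-1.70, 0.022) and the chaperone Bag6 (-1.37, 0.041). Reduced KSOM had 1 lower and 1 higher of the 39 (0.362% and 0.770% of all genes). Uba1 fell in reduced KSOM as well (-1.56, adjusted p = 0.020), with 81.6, 86.6 and 78.5 CPM in reduced KSOM and 89.7 and 103 in depleted KSOM, against 287 and 198 in E4.5. Nploc4, a cofactor of Vcp, fell in OVX (-3.27, adjusted p = 0.034), and no pathway gene was called in targeted OVX or starvation against E4.5. B2m, the light chain of MHC class I, which presents peptides made by the proteasome, had 161, 182 and 235 CPM in reduced KSOM and 109 and 140.3 in depleted KSOM, against 28.3 and 18.4 in E4.5, and rose in both (3.05, adjusted p = 0.023, and 2.42, 0.024). B2m also lay above both E4.5 libraries in OVX (96.0 and 133 CPM) and starvation (49.8 and 136 CPM), though it was not called there. In targeted OVX it had 40.0 and 14.1 CPM, on either side of E4.5. Between the media, Rps27a, which encodes ubiquitin fused to a ribosomal protein, was higher in reduced KSOM than in depleted KSOM (1.89, adjusted p = 0.018). Nfe2l1 and Nfe2l2, transcription factors of proteasome genes, and Ngly1, which activates Nfe2l1, were not called anywhere; Nfe2l2 had 60.4 and 65.7 CPM in depleted KSOM against 26.9 and 28.9 in E4.5 (1.18, adjusted p = 0.13).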

How the data were processed

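Whole mouse blastocysts were profiled by RNA-seq with SMART-Seq v4 cDNA, per the labels' protocols, in 13 libraries of 6 groups. The deposited table holds whole-number counts per gene and the authors' FPKM, both per the file headers; cutadapt 1.9, HISAT2 2.0.4, StringTie 1.3.4d and build GRCm38 are listed in the submitters' processing notes, while the annotation, the counting tool and the use of strand are not given in the sources used here. There were no molecular identifiers, so PCR copies count as reads.

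The counts were fitted with edgeR 4.0.16 (R 4.3.3) in 1 quasi-likelihood fit over the 13 libraries, each group having its own mean, with TMM scaling (factors 0.671 to 1.414) and its filter on low counts, which left 21808 of 31528 genes and 7 residual degrees of freedom. The common biological coefficient of variation was 0.896. Benjamini-Hochberg adjustment ran over all genes tested and a gene was called under 0.05. The standard error is the log2 fold change over the root of F. FPKM entered ratios within a library and limma 3.58.1 on log2(FPKM + 1), and DESeq2 1.42.0 was an alternative. Other alternatives were median-of-ratios and library-total scaling, other filters, a replicate block, fits of the compared groups alone, length offsets, muscle-transcript terms and leaving out each library. The scripts were tested on simulated data. No libraries had identical values.

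Genes named with values are the catalytic, inducible, tissue-specific, activator, deubiquitinase, ubiquitin receptor and assembly genes, every gene called, genes at the top or bottom of a role group, and up to 4 called pathway genes a comparison by smallest adjusted p, with Vcp added after its value was seen, to complete the count in depleted KSOM. A called pathway gene is not reported here. The members and all lists were chosen with earlier results of these data known. The OVX replicate 2 column carries a shorter name than its label and was matched by its replicate number.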

Additional observations from a re-analysis of the deposited data

Results flagged for a closer look

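The change against E4.5 differed between the KSOM media for 2 of the 50 proteasome genes, where 5.79% of all genes tested were called. It was tested directly as reduced KSOM minus depleted KSOM with edgeR. Psmb10 differed by 2.47 on the log2 scale (adjusted p = 0.024), with 10.7 to 17.3 CPM in the 3 reduced KSOM libraries and 1.91 and 3.18 CPM in the depleted ones. Psme2 differed by -1.25 (adjusted p = 0.041), with 19.6 to 23.9 CPM in the reduced KSOM libraries and 50.7 and 51.9 CPM in the depleted ones. Both calls were lost when any library of the 2 media was left out. With a term for libraries rich in muscle transcripts the edgeR adjusted p was 0.39 for Psmb10 and 0.86 for Psme2.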

How the results depend on the processing

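Counts of called proteasome genes were small and moved with the processing. Against E4.5, targeted OVX had 4 calls, and 1 with library totals, 9 without a low-count filter, 7 at a mean CPM of at least 5, 13 with DESeq2, 2 with offsets for annotated length, 1 without the libraries rich in muscle transcripts, and 0 when only the 2 groups were fitted. OVX had 3, and 8 with DESeq2, 1 with either length offset, 0 with the compared groups alone, 0 with a muscle term and 0 without the muscle-rich libraries. Starvation had 1, and 0 with library totals, 2 without a filter, 4 at a mean CPM of 5, 0 with the compared groups alone, 7 with DESeq2, 4 with limma, 2 with a muscle term and 0 without the muscle-rich libraries. Reduced KSOM had 1, and 7 with library totals, 2 at a mean CPM of 5, 4 with the compared groups alone, 4 with DESeq2, 13 with limma, 2 with either length offset and 0 with a muscle term. Depleted KSOM had 3, and 7 with library totals, 7 at a mean CPM of 5, 9 with the compared groups alone, 13 with DESeq2, 9 with limma, 5 with either length offset, 5 with a muscle term and 1 without the muscle-rich libraries. Reduced against depleted KSOM had 2, and 4 without a filter, 14 with the compared groups alone, 7 with DESeq2 and 0 with a muscle term. Targeted OVX against OVX had 0 in all of these settings. The cause of these shifts was not tested. For the alternatives, here and in the next paragraph, the share of all genes called was not computed. Their counts therefore cannot be read as results about proteasome genes as a set. Annotated-length offsets and the exclusion of muscle-rich libraries were chosen after seeing the data, and the exclusion gives no value for reduced KSOM.

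Leaving out 1 library at a time gave 0 to 2 calls in targeted OVX, OVX and starvation, 0 to 1 in depleted KSOM and in targeted OVX against OVX, and 0 in reduced KSOM and between the KSOM media. Psmb9 in targeted OVX against OVX stood at 0.11 and turned to -10.20 (adjusted p = 0.034) without targeted OVX replicate 1, where the lone library left has 0 counts and is assumed to vary like the other groups; its values without 1 library ranged from -10.20 to 1.10. Same-numbered replicates showed little shared deviation (correlations -0.064 to 0.10 over 9209 genes). Where both groups have 2 libraries, both pairs give the same value, and a low correlation cannot exclude a shared day or litter. Whether the numbers pair the libraries is therefore not known. A replicate block gave 0 calls in targeted OVX, 1 in OVX, 0 in starvation, 0 in reduced KSOM, 2 in depleted KSOM and 0 between the KSOM media. Of the results for single genes, 2590 kept direction and side of the threshold, 107 lost a call and 74 gained one. Another 208 changed sign without a call in either setting, and 1 changed both sign and side of the threshold.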
